A study of Mus musculus with 24 samples.

Results

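The 7 genes described here encode subunits of voltage-gated sodium channels: the α subunits Scn1a, Scn3a, Scn7a and Scn8a and the β subunits Scn2b, Scn3b and Scn4b. They were taken by name and are 7 of 17729 genes with a tested probe. Of the array's 56605 gene probes 22 carry 1 of the 7 symbols. A probe was tested if it rose well above background throughout 1 group or more (3 of 3 arrays), which 13 of these 22 and 36409 probes in all did. Each gene was followed through its brightest probe over the 24 arrays, and its other probes were used as a check. All 7 brightest probes were tested.

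Sodium channel α subunits form the pore through which an action potential is generated. The β subunits are single-span membrane proteins that adjust gating and hold the channel at the cell surface and next to adhesion molecules. In myelinated fibres the channels are clustered at the axon initial segment and at the node of Ranvier, where Scn8a (Nav1.6) is the main adult α subunit, while Scn3a (Nav1.3) is known as the channel of embryonic and newborn neurons. Scn1a (Nav1.1) is found in large sensory and motor neurons, and Scn4b is the β subunit associated with resurgent current. Scn7a (Nax) is an atypical, sodium-sensing relative that is also known from glia, Schwann cells included.

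Total RNA of efferent nerve fibres (EN, ventral root) and afferent nerve fibres (AN, dorsal root) from spinal segments L4 to L6 of C57BL/6 mice, with no other genotype or treatment given, was hybridised to 1-colour Agilent arrays. The mice were P0 (day of birth), 1 W, 3 W or 5 W (weeks) old, and each of the 8 groups had 3 arrays, described as independent experiments. Both sexes were used, and how the mice were divided among the arrays is not given in the sources used here, so p-values measure only the spread between these arrays, which may be technical. The labels name the tissue both as nerve root and as spinal cord segment, the study describes the afferent fibres as chiefly central branches of ganglion neurons, and whether any ganglion tissue came with them is not stated.

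The tissue was checked against its markers. The mean log2 intensity of 8 myelinating Schwann cell genes lay between 14.68 and 16.54 on every array. That of 10 neuron genes (filament, synaptic and RNA-binding protein genes) lay between 10.53 and 15.29. Mnx1, a defining motor neuron marker, was well above background on 0 arrays. The other 6 genes of the motor neuron list were tested. Chat, Slc18a3 and Prph were well above background on 24 arrays, Isl2 on 23, Uts2 on 18 and Slc5a7 on 10. Of 5 skeletal muscle genes 5 were called lower at 1 W than at P0 in either root. AN 3 W replicate 3 stood apart: its neuron list lay 3.71 above the mean of the other AN 3 W arrays on the log2 scale, Scn1a 3.37 and Scn4b 4.20 above. In AN 5 W replicate 3 the neuron list lay 2.18, the sensory neuron list 1.64 and Scn3a 2.99 below the other AN 5 W arrays. The main differences that rest on these arrays are also given without them. In whole fibres fewer cells of a type and less RNA per cell cannot be told apart.

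The sequences of some probes are printed 5′ to 3′ with mm9 positions from the array's own annotation, strand in brackets. The 60 bases of the brightest Scn1a and Scn7a probes share at most 9 bases in a row with any probe of another sodium channel gene on the array. Whole transcripts were not searched, so this comparison cannot show which transcripts the probes bind. The other Scn3b probe is shown because it followed the Scn3b course from another place in the transcript.
Scn1a, brightest, chr2:66111022-66111081 (-): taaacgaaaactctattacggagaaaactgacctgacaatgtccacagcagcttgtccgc
Scn7a, brightest, chr2:66514113-66514172 (-): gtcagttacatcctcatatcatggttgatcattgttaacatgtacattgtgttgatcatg
Scn3b, other probe, chr9:40090063-40090122 (+): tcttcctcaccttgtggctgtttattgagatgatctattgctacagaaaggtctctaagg

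The brightest Scn8a probe has a different make-up: it holds 7 GT repeats in a row. Lines of 30 bases out of 60 show it beside the probes of the 3 genes whose values were most like it, with the alternating G and T run in capitals and the position of the whole probe. Of these 3 probes 2 hold 7 GT repeats in a row, and that of Suv39h2, with a run of 13 bases, does not.
Scn8a, chr15:100875702-100875761 (+): acatgtaTGTGTGTGTGTGTGTGaagaatg
4933427D06Rik, chr6:89059972-89060031 (+): TGTGTGTGTGTGTGTGTagttaactatcct
Suv39h2, chr2:3373186-3373245 (-): tgtgtgtcTGTGTGTGTGTGTtgcttacta
Zfp672, chr11:58142946-58143005 (-): tccaagtTGTGTGTGTGTGTGTttaaataa

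Between afferent and efferent nerve fibres none of the 7 genes was called different at P0, and at 1 W Scn4b, Scn1a, Scn7a and Scn2b were higher in the afferent fibres. Scn7a alone was also called at 3 W and 5 W. Called here means a limma p below 0.05 after Benjamini-Hochberg adjustment over all 36409 probes and a fold above 2. At P0 the 0 of 7 genes (0 of 7 at an unadjusted p below 0.05, which 7.32% of all probes had) stood against 0.327% of all tested probes called. At 1 W 4 of 7 genes were called, all higher in AN, against 2.8% of all probes called in either direction and 2.41% called higher. At 3 W it was 1 of 7 against 3.13% (2.24% higher), and at 5 W 1 of 7 against 3.34% (2.51% higher).

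The median AN minus EN log2 difference of the 7 genes was 0.20 at birth, then 1.52, 1.87 and 1.13 at the 3 later ages, where the median over all probes was 0.01, -0.07, -0.03 and -0.03. Without AN 3 W replicate 3 the 3 W median of the 7 genes was 0.49, and without AN 5 W replicate 3 the 5 W median was 1.56. With the unadjusted p below 0.05 and fold above 2 that the methods name, 0, 4, 4 and 2 of 7 genes passed at the 4 ages, against 1.11%, 4.9%, 5.66% and 5.6% of all probes. The arrays of both roots did not overlap for 0, 5, 6 and 3 of 7 genes at the 4 ages, against 13.2%, 24.7%, 32.7% and 20.1% of all probes.

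**Figure D1:**
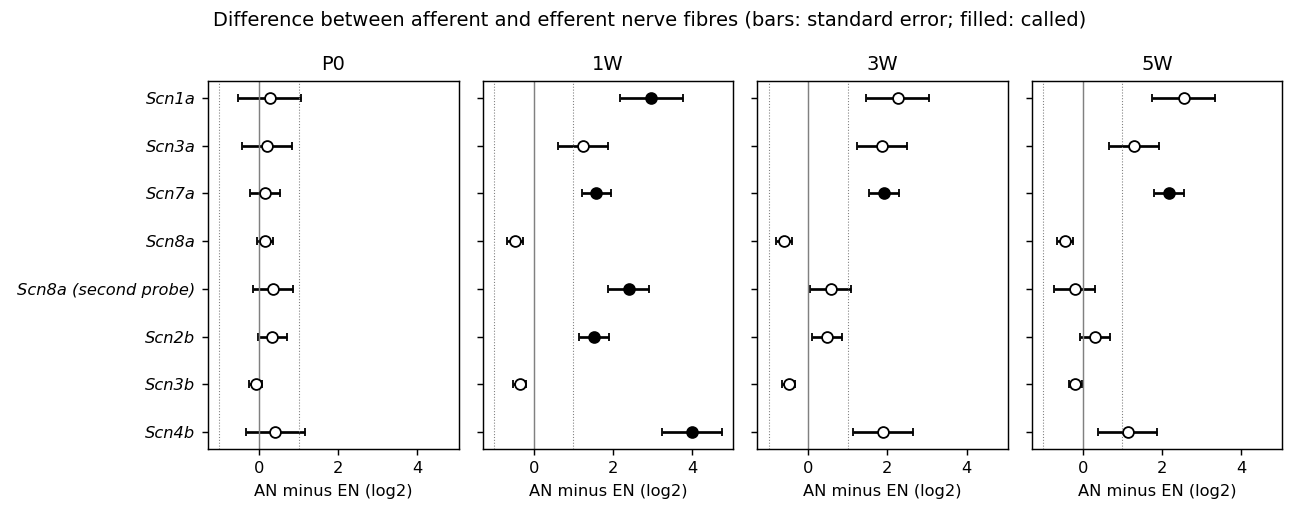
AN minus EN difference (log2, ± SE of the limma fit) of each of the 7 genes and of the other tested Scn8a probe at the 4 ages. Filled points were called, and dotted lines mark a fold of 2; the filled points of the 7 brightest probes lie at 1 W (Scn4b 4.00, Scn1a 2.97, Scn7a 1.59, Scn2b 1.52) and, for Scn7a, at 3 W (1.93) and 5 W (2.18).

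Over development in efferent fibres Scn1a and Scn3a fell and Scn3b rose from P0 at every later age, and Scn7a rose at 3 W and 5 W. In afferent fibres Scn7a and Scn3b rose at every later age, Scn3a fell at 3 W and 5 W, and the brightest Scn8a probe fell at 3 W. Against P0 in EN, 1 of 7 genes rose and 2 fell at 1 W (6.32% and 5.66% of all probes). At 3 W 2 rose and 2 fell (16.1% and 14.4%), and at 5 W 2 rose and 2 fell (15.5% and 14.5%). Against P0 in AN, 2 rose and 0 fell at 1 W (4.97% and 3.61%), 2 rose and 2 fell at 3 W (15.1% and 12.8%), and 2 rose and 1 fell at 5 W (15.2% and 12.7%).

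Between 1 W and 3 W 2 of 7 genes were called in EN (11.7% of all probes) and 1 in AN (12.6%). Between 3 W and 5 W it was 0 in either root by limma (1.13% of all probes in EN and 1.7% in AN), with 2 genes in EN and 1 in AN at an unadjusted p below 0.05 (16.8% and 19.2% of all probes). Comparisons with P0 share the P0 arrays, so their values are given side by side only. All 3 W arrays lay on 1 slide that held no P0 or 1 W array, so no within-slide value exists for 3 W against those ages. A fit with slide as a block borrowed that link from the 5 W arrays, and its values are given where a call was lost.

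**Figure D2:**
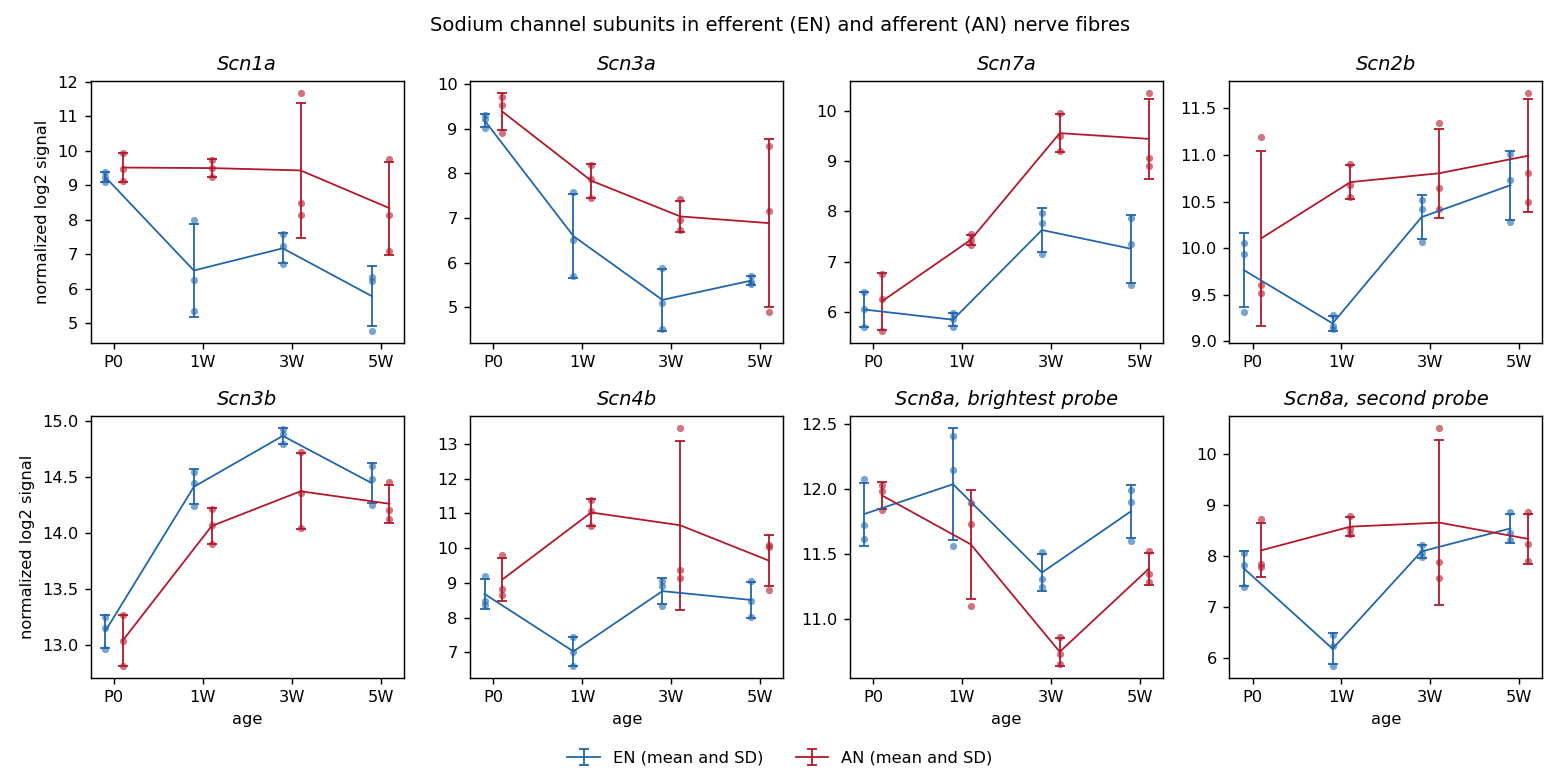
Log2 intensity of each gene on each of the 24 arrays (points) with the group mean ± SD (n = 3), EN in blue and AN in red, against age (P0, 1 W, 3 W, 5 W). Scn3b rises from means of 13.12 (EN) and 13.04 (AN) at P0 to over 14 at every later age, Scn3a drops, Scn4b peaks in AN at 1 W (11.03), and both Scn8a probes take different courses.

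Scn4b, the β subunit linked to resurgent current, showed the largest root difference of the 7 genes. At 1 W its log2 intensity was 6.62, 7.02 and 7.44 in EN against 11.07, 11.38 and 10.62 in AN. The 3 AN arrays lay well above the 3 EN arrays. AN exceeded EN by 4.00 (SE 0.75, fold 16.0, adjusted p 0.0057), by 4.46, 4.36 and 3.18 in the 3 pairs of equal replicate number, each pair on 1 slide. The call was kept whichever of these 6 arrays was left out (adjusted p 0.0104 to 0.0396). With a replicate number left out of every group it was lost without number 1 (3.77, adjusted p 0.411) and number 2 (3.82, adjusted p 0.185).

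At P0 the Scn4b values were 8.37, 8.48 and 9.19 in EN against 8.81, 9.81 and 8.66 in AN, which overlapped. At 3 W they were 8.90, 8.33 and 9.06 in EN against 9.38, 9.13 and 13.46 in AN, and at 5 W 8.00, 8.47 and 9.04 in EN against 10.04, 10.08 and 8.79 in AN. The AN 3 W value of 13.46 is that of replicate 3, and the others lay close to EN. The 3 W difference was 1.90 (adjusted p 0.160) with it and 0.49 (adjusted p 0.643) without it. From 1 W to 3 W Scn4b in AN changed by -0.37 (adjusted p 0.747) with that array, and by -1.77 (adjusted p 0.00488) without it. The difference of 1.90 became 2.66 (adjusted p 0.0493) without AN 3 W replicate 2.

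In EN the 1 W arrays of Scn4b lay below those of P0 without overlap, by 1.65 on the log2 scale (adjusted p 0.114), and in AN the 1 W arrays lay 1.93 above P0 (adjusted p 0.0761). Both slides that held P0 and 1 W gave the same signs, with -1.75 and -1.39 in EN and 2.26 and 1.39 in AN. From P0 to 3 W Scn4b in AN differed by 1.56 (adjusted p 0.0907), or 0.16 (adjusted p 0.775) without AN 3 W replicate 3, and it was called without AN 3 W replicate 1 (2.20, adjusted p 0.0314) or replicate 2 (2.33, adjusted p 0.0194). In order of the group means AN 1 W, 3 W, 5 W and P0 came first and EN 3 W, P0, 5 W and 1 W last. Of the neighbours in this order, EN 5 W and EN 1 W alone did not overlap.

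Scn1a, the α subunit of Nav1.1, was measured on all 24 arrays. Its log2 intensity at P0 was 9.11, 9.25 and 9.40 in EN against 9.49, 9.95 and 9.11 in AN, with overlap. At 1 W it was 5.36, 6.25 and 7.99 in EN against 9.25, 9.51 and 9.75 in AN, so the EN arrays were low and spread widely while AN lay within its P0 range. The difference at 1 W was 2.97 (SE 0.80, fold 7.85, adjusted p 0.0403), with 3.89, 3.26 and 1.77 in the 3 pairs.

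This Scn1a call at 1 W was lost without any 1 of the 3 AN arrays (adjusted p 0.0962, 0.108 and 0.141) or without EN replicate 1 (0.238) or 2 (0.140). It was also lost with normexp background correction (2.17, adjusted p 0.0534), with no filter on dim probes (adjusted p 0.0697) and with the 1 W groups fitted alone (adjusted p 0.0567).

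At 3 W Scn1a was 7.23, 6.71 and 7.58 in EN against 8.49, 8.13 and 11.68 in AN, and at 5 W 4.78, 6.23 and 6.35 in EN against 8.14, 9.78 and 7.11 in AN. The roots did not overlap at either age. The differences of 2.26 at 3 W (adjusted p 0.107) and 2.55 at 5 W (adjusted p 0.0613) were not called. With the AN and EN arrays of equal number as blocks they were (adjusted p 0.0360 and 0.0211). Without AN 3 W replicate 3 the 3 W difference was 1.14 (adjusted p 0.454), and without AN 5 W replicate 3 the 5 W difference was 3.17 (adjusted p 0.0266). With any 1 array left out the 5 W difference ranged from 1.83 to 3.17 (limma adjusted p 0.0266 to 0.276).

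From P0 Scn1a fell in EN by 2.72 at 1 W (adjusted p 0.0159), by 2.08 at 3 W (adjusted p 0.0338) and by 3.46 at 5 W (fold 11.04, adjusted p 0.00121). In AN the differences were -0.02, -0.08 and -1.18 (adjusted p 0.993, 0.942 and 0.229), and the value at 3 W was -1.21 (adjusted p 0.150) without AN 3 W replicate 3. Without AN 5 W replicate 3 that at 5 W was -0.56 (adjusted p 0.627). Slides that held both ages gave -3.76 and -1.34 in EN at 1 W and -3.09 at 5 W. With slide as a block the EN difference at 3 W was -1.35 (adjusted p 0.386), and it was also lost without any 1 EN P0 array (adjusted p 0.0590 to 0.0798), or without EN 3 W replicate 1 (0.0654) or 2 (0.102). The EN call at 1 W was lost without EN P0 replicate 3 (0.0514) or EN 1 W replicate 1 (0.0940) or 2 (0.0558).

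The next brightest Scn1a probe followed the brightest with a Pearson r of 0.91 over the 24 arrays. It shares a run of 29 bases with a dim Scn3a probe, and whether it also binds Scn3a transcripts was not tested. It was not well above background on any EN array at 1 W, 3 W or 5 W. The AN mean was therefore at least 2.35-fold higher at 1 W (adjusted p 0.0535) and 2.12-fold at 3 W (adjusted p 0.226). At 5 W the same calculation gave 1.18-fold (adjusted p 0.382), which does not hold as a bound. There AN replicates 1, 2 and 3 lay at 4.819, 7.172 and 3.842 against an EN limit of 5.042, so replicate 2 alone was above it. The mean behind the 3 W bound includes AN 3 W replicate 3 at 7.495. The other AN 3 W arrays lay at 5.282 and 5.101, near the EN limit of 4.876. EN at P0 was at least 3.09-fold, 3.10-fold and 2.77-fold above EN at 1 W, 3 W and 5 W (adjusted p 0.00469, 0.0148 and 0.00606). Such a bound sets the dim group at the lowest signal found well above background on its arrays. Here AN at 5 W was called below AN at P0 (-1.65, adjusted p 0.0406), with overlapping arrays. The remaining tested probe had an r of 0.375 and no call. In order of the brightest probe's group means AN P0, 1 W and 3 W came first, then EN P0, AN 5 W and EN 3 W, 1 W and 5 W. Each neighbour overlapped the next.

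Scn3a, the α subunit of newborn neurons, started high in both roots. At P0 its log2 intensity was 9.31, 9.23 and 9.02 in EN against 9.70, 9.54 and 8.91 in AN. At 1 W it was 5.71, 6.50 and 7.58 in EN against 7.87, 7.45 and 8.20 in AN, and at 3 W 4.52, 5.10 and 5.89 in EN against 6.96, 6.73 and 7.42 in AN. At both ages every array of either root lay below every P0 array.

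At 5 W Scn3a was 5.53, 5.57 and 5.71 in EN against 7.15, 8.62 and 4.89 in AN, where the afferent arrays were spread over nearly the whole range. It was well above background on 2 of 3 arrays in EN at 3 W, EN at 5 W and AN at 5 W. In EN it fell from P0 by 2.59 (adjusted p 0.00497), 4.02 (fold 16.2, adjusted p 3.26e-05) and 3.59 (adjusted p 9.46e-05) at 1 W, 3 W and 5 W. In AN the 1 W difference was -1.55 (adjusted p 0.0883), and it fell by 2.35 at 3 W (adjusted p 0.00433) and 2.50 at 5 W (adjusted p 0.00269). Without AN 5 W replicate 3 Scn3a still fell by 1.5 on the log2 scale at 5 W (adjusted p 0.0169).

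On slides that held both ages the Scn3a difference from P0 was -3.61 and -1.54 in EN at 1 W, -3.56 in EN at 5 W, -1.84 and -1.03 in AN at 1 W and -0.60 in AN at 5 W. With slide as a block the AN difference at 3 W was -0.73 (adjusted p 0.538). Fitted on the AN P0 and 5 W groups alone, the 5 W difference had an adjusted p of 0.0641.

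Between roots Scn3a differed by 0.20, 1.24, 1.87 and 1.29 at the 4 ages (SE 0.63, adjusted p 1.0, 0.408, 0.0901 and 0.254). The roots did not overlap at 3 W, and with arrays of equal number as blocks the 3 W difference was called (adjusted p 0.0427). Without AN 5 W replicate 3 the 5 W difference was 2.28 (adjusted p 0.00619). AN 5 W replicate 2 lay 2.60 above its group mates. With any 1 array left out the 5 W difference ranged from 0.42 to 2.28 (limma adjusted p 0.00619 to 0.760). The other tested Scn3a probe (r 0.798) also fell in EN, by 2.50, 2.92 and 3.16, and in AN with a fold of 3.99 at 1 W (adjusted p 0.00521), and by 2.77 at 3 W and 1.66 at 5 W. On it AN was above EN by 0.38 at 3 W and by 1.72 at 5 W (adjusted p 0.0339), with arrays that overlapped at 5 W. In order of group means AN P0 and EN P0 came first, then AN 1 W, 3 W and 5 W and EN 1 W, 5 W and 3 W, and gaps without overlap lay on both sides of AN 1 W.

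Scn7a, the sodium sensor Nax, rose in both roots, and more AN than EN signal was measured at each age after P0. Its log2 intensity at P0 was 6.06, 6.40 and 5.69 in EN against 6.25, 6.76 and 5.63 in AN, with overlap and with 2 of 3 AN arrays well above background. At 1 W it was 5.87, 5.71 and 5.97 in EN against 7.34, 7.43 and 7.54 in AN. At 3 W it was 7.78, 7.97 and 7.15 in EN against 9.96, 9.51 and 9.20 in AN. From 1 W on no EN array reached the AN arrays of its age.

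At 5 W the Scn7a values were 6.54, 7.36 and 7.88 in EN against 8.91, 9.06 and 10.36 in AN. AN exceeded EN by 1.59 at 1 W (fold 3.01, adjusted p 0.0203), 1.93 at 3 W (fold 3.80, adjusted p 0.00483) and 2.18 at 5 W (fold 4.54, adjusted p 0.00142), each with an SE of 0.38. The 9 pairs of these ages ranged from 1.48 to 2.48. The 3 W difference was 2.10 (adjusted p 0.00854) without AN 3 W replicate 3.

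The call at 1 W was lost without any 1 AN array (adjusted p 0.0598 to 0.0839), without EN replicate 1 (0.0787) or 2 (0.0839) and with normexp (0.93, adjusted p 0.0672), and that at 5 W with the 5 W groups fitted alone (adjusted p 0.174). The growth of the root difference from P0 was 1.43, 1.76 and 2.02 at 1 W, 3 W and 5 W (adjusted p 0.453, 0.191 and 0.0777). With arrays of equal number as blocks all 3 were called (adjusted p 0.0310, 0.00571 and 0.00244), as was the last without EN 5 W replicate 3 (2.33, adjusted p 0.0491).

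From P0 Scn7a in AN rose by 1.22 at 1 W (adjusted p 0.0258), 3.34 at 3 W (adjusted p 8.49e-07) and 3.23 at 5 W (fold 9.38, adjusted p 9.60e-07). In EN it differed by -0.20 at 1 W (adjusted p 0.731) and rose by 1.58 at 3 W (adjusted p 0.00176) and 1.21 at 5 W (adjusted p 0.0113). It also rose from 1 W to 3 W, by 1.78 in EN (adjusted p 0.00190) and 2.12 in AN (adjusted p 0.000428).

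Slides that held both ages gave Scn7a differences from P0 of 1.09 and 1.35 in AN at 1 W, 2.87 in AN at 5 W and 1.32 in EN at 5 W. With slide as a block the EN rise at 3 W was 0.55 (adjusted p 0.336), the rises from 1 W to 3 W were 0.65 in EN (adjusted p 0.317) and 0.99 in AN (adjusted p 0.105), and the EN rise at 5 W was 0.95 (adjusted p 0.0231), under the fold of 2. The EN rise at 5 W was lost without EN P0 replicate 3 (1.03, adjusted p 0.0538) or EN 5 W replicate 3 (0.90, adjusted p 0.0714). With normexp the EN rises were 0.96 at 3 W and 0.71 at 5 W, and the AN rise at 1 W 0.73 (adjusted p 0.0632). The AN rise at 1 W was lost without AN P0 replicate 1 (0.0538) or 3 (0.93, adjusted p 0.147), or any 1 AN 1 W array (adjusted p 0.0544 to 0.0683).

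The other Scn7a probe (r 0.832) was also higher in AN, by 1.48, 1.97 and 2.34 at 1 W, 3 W and 5 W (adjusted p 0.0110, 0.00103 and 0.000159). It was not well above background on any EN 1 W array, so the 1 W value is a bound of at least 1.94-fold. On it AN rose by 1.56 at 3 W and 1.68 at 5 W, while EN at 3 W and 5 W and AN at 1 W differed from P0 by 0.18, -0.07 and -0.02, none called. In order of group means AN 3 W and AN 5 W came first, then EN 3 W, AN 1 W, EN 5 W, AN P0, EN P0 and EN 1 W. Between AN 5 W and EN 3 W alone the neighbours did not overlap.

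Scn2b, a β subunit that is disulphide-linked to the pore, differed between roots at 1 W. Its log2 intensity there was 9.13, 9.17 and 9.28 in EN against 10.55, 10.67 and 10.91 in AN. Both groups were tight and apart. AN exceeded EN by 1.52 (SE 0.38, fold 2.86, adjusted p 0.0260), with 1.42, 1.51 and 1.63 in the pairs. The call was lost when any 1 of these 6 arrays was left out (adjusted p 0.05001 to 0.113).

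At P0 Scn2b was 9.31, 10.06 and 9.94 in EN against 9.52, 11.19 and 9.61 in AN, where replicate 2 lay above the others. At 3 W it was 10.42, 10.06 and 10.52 in EN against 10.65, 10.42 and 11.34 in AN, and at 5 W 10.28, 10.74 and 11.01 in EN against 10.50, 11.67 and 10.81 in AN. The roots overlapped at these ages, with differences of 0.34, 0.47 and 0.32 (adjusted p 1.0, 0.550 and 0.692).

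In EN Scn2b rose from 1 W to 3 W by 1.14 (adjusted p 0.0306), which was lost without any 1 EN 1 W array or without EN 3 W replicate 1 or 3 (adjusted p 0.0569 to 0.0926) and with slide as a block (0.91, adjusted p 0.223). From P0 it differed in EN by -0.57, 0.57 and 0.91 (adjusted p 0.278, 0.209 and 0.0479, the last under the fold of 2). In AN the differences from P0 were 0.60, 0.70 and 0.89 (adjusted p 0.282, 0.128 and 0.0570). Without AN P0 replicate 2 they were 1.15, 1.24 and 1.43 (adjusted p 0.0173, 0.00393 and 0.00128). In order of group means AN 5 W, 3 W and 1 W came first, then EN 5 W, EN 3 W, AN P0, EN P0 and EN 1 W, and the last neighbours alone did not overlap.

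Scn3b, a β subunit found in many neurons, rose in both roots. Its log2 intensity was 13.24, 12.96 and 13.15 in EN against 13.26, 13.04 and 12.81 in AN at P0. It was 14.55, 14.45 and 14.24 in EN against 14.07, 14.21 and 13.90 in AN at 1 W. Every later array was above every P0 array. It was 14.79, 14.88 and 14.93 in EN against 14.35, 14.72 and 14.04 in AN at 3 W, and 14.60, 14.48 and 14.25 in EN against 14.20, 14.12 and 14.45 in AN at 5 W.

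In EN Scn3b rose by 1.30 (adjusted p 1.83e-05), 1.75 (fold 3.37, adjusted p 8.36e-08) and 1.33 (adjusted p 1.88e-06), and in AN by 1.02 (adjusted p 0.000204), 1.34 (adjusted p 2.40e-06) and 1.22 (adjusted p 5.32e-06), with an SE of 0.16. Slides that held both ages gave 1.30 and 1.19 in EN and 0.81 and 0.98 in AN at 1 W, and 1.43 in EN and 1.2 in AN at 5 W. The AN rise at 1 W was under the fold of 2 without AN P0 replicate 3 (0.91) or AN 1 W replicate 2 (0.95) and with slide as a block (0.96, adjusted p 0.000333).

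Between roots Scn3b differed by -0.08, -0.35, -0.50 and -0.19 (adjusted p 1.0, 0.347, 0.0856 and 0.569). No overlap was seen at 1 W and 3 W, where EN lay above AN. The probe printed above (r 0.913) rose in EN by 1.17, 1.75 and 1.26 and in AN by 1.02 at 1 W and 1.03 at 3 W, and its AN value at 5 W was 0.86 above P0 (adjusted p 0.0109, under the fold of 2). In order of group means EN 3 W, 5 W and 1 W came first, then AN 3 W, 5 W and 1 W, EN P0 and AN P0, and gaps without overlap lay after EN 3 W and before EN P0.

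**Figure D3:**
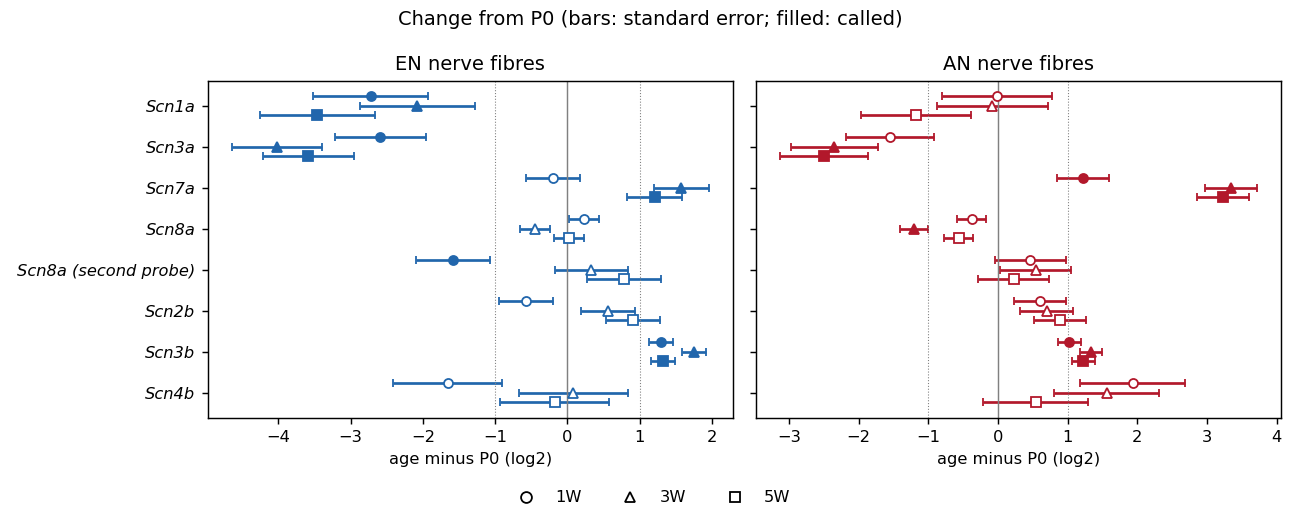
Difference from P0 (log2, ± SE of the limma fit) at 1 W (circle), 3 W (triangle) and 5 W (square) in EN and AN. Filled symbols were called and dotted lines mark a fold of 2: Scn3b is filled in both roots at every age, Scn3a and Scn1a are filled below 0 in EN, and Scn7a reaches 3.34 in AN.

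Scn8a, the α subunit of the adult node, gave different pictures on its 2 tested probes. On the brightest probe the log2 intensity was 12.08, 11.61 and 11.72 in EN against 12.03, 11.98 and 11.84 in AN at P0, and 12.40, 11.56 and 12.14 in EN against 11.73, 11.10 and 11.89 in AN at 1 W. It was 11.31, 11.25 and 11.52 in EN against 10.86, 10.65 and 10.73 in AN at 3 W, and 11.90, 11.99 and 11.60 in EN against 11.29, 11.52 and 11.34 in AN at 5 W. AN lay below EN without overlap at 3 W and 5 W.

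AN minus EN on this probe was 0.15, -0.46, -0.61 and -0.44 (SE 0.21, adjusted p 1.0, 0.316, 0.0936 and 0.232). From P0 it fell in AN by 1.21 at 3 W (adjusted p 9.59e-05) and differed by -0.38 at 1 W (adjusted p 0.216) and -0.57 at 5 W (adjusted p 0.0293, under the fold of 2). In EN the differences were 0.23, -0.45 and 0.02 (adjusted p 0.443, 0.0742 and 0.938). With slide as a block the AN difference at 3 W was -0.72 (adjusted p 0.0106), under the fold of 2. In order of group means EN 1 W, AN P0, EN 5 W and EN P0 came first, then AN 1 W, AN 5 W, EN 3 W and AN 3 W, and the last neighbours alone did not overlap.

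On the other tested Scn8a probe, at chr15:100871650-100871709 (+) and with no such repeat, the log2 intensity was 7.39, 7.82 and 8.07 in EN against 7.84, 8.73 and 7.78 in AN at P0. At 1 W it was 5.85, 6.46 and 6.24 in EN against 8.43, 8.78 and 8.53 in AN. All EN arrays at 1 W lay below all other arrays of this probe. AN exceeded EN at 1 W by 2.40 (SE 0.51, fold 5.27, adjusted p 0.0102), with 2.58, 2.32 and 2.30 in the pairs.

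At 3 W this probe gave 7.98, 8.09 and 8.22 in EN against 7.57, 7.89 and 10.52 in AN, where replicate 3 was again the high one, and at 5 W 8.32, 8.87 and 8.45 in EN against 8.24, 8.87 and 7.91 in AN. The root differences were 0.57 (adjusted p 0.612) and -0.21, and without AN 3 W replicate 3 and AN 5 W replicate 3 they were -0.36 and 0.0087. In EN it fell by 1.58 from P0 to 1 W (adjusted p 0.0268) and rose by 1.91 from 1 W to 3 W (adjusted p 0.00937). In AN it differed from P0 by 0.54 at 3 W (adjusted p 0.388), where the brightest probe fell. The 2 probes had a Pearson r of -0.446 over the 24 arrays.

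The GT run was counted over the array. The letters GTGTGTGTGTGTGT (probe strand, 14 bases) were found in 80 of 56605 gene probes (0.141%). All 80 were tested, as against 64.3% of all gene probes, and their median log2 intensity was 13.6 against 8.49. Over the 24 arrays the other 79 probes with the run had a median r of 0.682 with the brightest Scn8a probe (-0.062 to 0.990), where the median over all 36407 other tested probes was -0.035. Of the 46 other tested probes with an r above 0.9, 21 held the run. No other tested probe of the 7 genes held it. Whether the repeat sets these values was not tested, and the probes share the same 24 libraries.

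**Figure D4:**
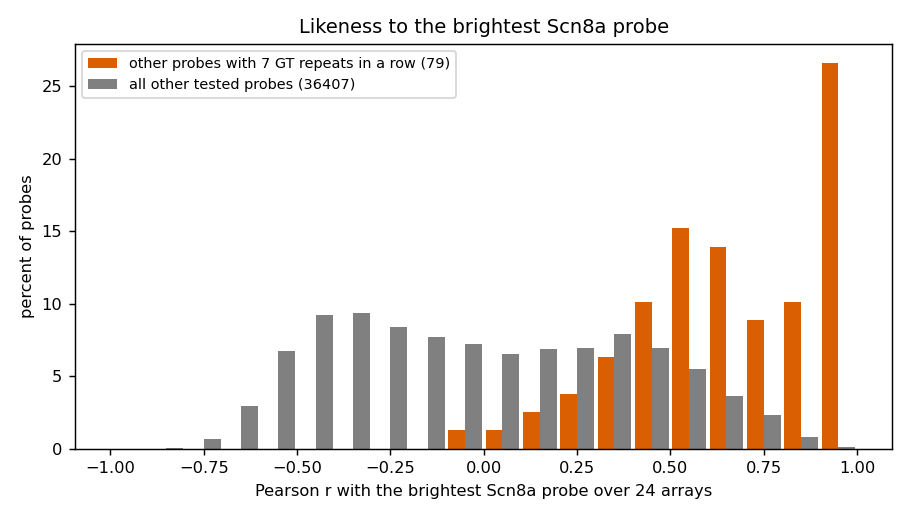
Pearson r over 24 arrays with the brightest Scn8a probe (x axis, bins of 0.1) as a percentage of probes (y axis), for the 79 other probes with 7 GT repeats in a row and for all 36407 other tested probes. Above an r of 0.9 lie 21 of the 79 and 0.126% of all.

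The change of the root difference from P0 was not called for any of the 7 genes at 1 W, 3 W or 5 W by limma, against 0.0632%, 0.53% and 0.948% of all probes. At an unadjusted p below 0.05 it was 4, 2 and 1 of 7, against 7.08%, 9.23% and 10.8% of all probes. For Scn4b it was 3.58 at 1 W (adjusted p 0.274) and for Scn1a 2.71 (adjusted p 0.554). With the AN and EN arrays of equal number at an age as blocks the change of Scn7a alone was called at each age, as given above. In the main fit a root difference called at 1 W and not at P0 is thus not shown to have changed for Scn1a, Scn2b, Scn4b or Scn7a. Over the alternative settings the lowest adjusted p of the change at 1 W was 0.0483 for Scn1a, 0.156 for Scn2b and 0.00988 for Scn4b. Sign and call stayed as in the main fit in 27 of 29, 27 of 28 and 24 of 28 settings.

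Markers of neurons moved with several of these genes. The neuron list (10 genes) differed between AN and EN by 0.09, 2.79, 1.69 and 0.84 on the log2 scale at the 4 ages (exact permutation p 0.9, 0.1, 0.1 and 0.4, 2-sided, where 0.1 is the smallest that 3 against 3 can give). At 1 W its AN arrays lay at 13.98 to 14.12 and its EN arrays at 10.79 to 11.98. At 3 W AN spanned 11.37 to 15.29 against 10.94 to 11.28 in EN, and without AN 3 W replicate 3 the difference was 0.45. Without AN 5 W replicate 3 the 5 W difference was 1.57. Of its 10 genes 6, 2 and 2 were called higher in AN at 1 W, 3 W and 5 W, and against P0 6, 7 and 7 were called lower in EN and 0, 0 and 4 in AN.

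The sensory neuron list (9 tested genes, among them Avil and Calca) differed by 0.21, 2.63, 1.87 and 1.17 at the 4 ages. Pou4f1 and Runx3 of this list lay lower in AN at 1 W, with means of 13.69 and 6.07 against 14.13 and 6.23 in EN, neither called. At the 4 ages 0, 4, 3 and 1 genes of the list were called higher in AN. The list differed by 1.00 at 3 W without AN 3 W replicate 3. The motor neuron list (6 tested genes) differed by -0.08, 1.08, 0.47 and -0.27, and by -0.39 at 3 W without that array. In it Isl2 and Prph were higher in AN at 1 W, with means of 12.15 and 14.34 against 7.09 and 9.38 in EN. Avil of the sensory list lay at 13.69 against 8.36. These genes thus did not set the ventral root apart here, and they enter the list difference of 1.08. Uts2, the peptide urotensin of motor neurons, was lower in AN at 1 W, 3 W and 5 W.

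Scn1a had a Pearson r of 0.901 with the neuron list over the 24 arrays and 0.875 after the group means were removed. For Scn4b these were 0.71 and 0.939, for Scn3a 0.797 and 0.587, and for Scn7a -0.139 and -0.342. Between Scn1a and Scn4b r was 0.738 and 0.843. All these values include AN 3 W replicate 3. It lay 3.71 (neuron list), 3.37 (Scn1a) and 4.20 (Scn4b) above its group mates. No r was computed without it. These correlations describe points that share libraries and groups, and the part of the neuron content in the root differences was not tested.

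**Figure D5:**
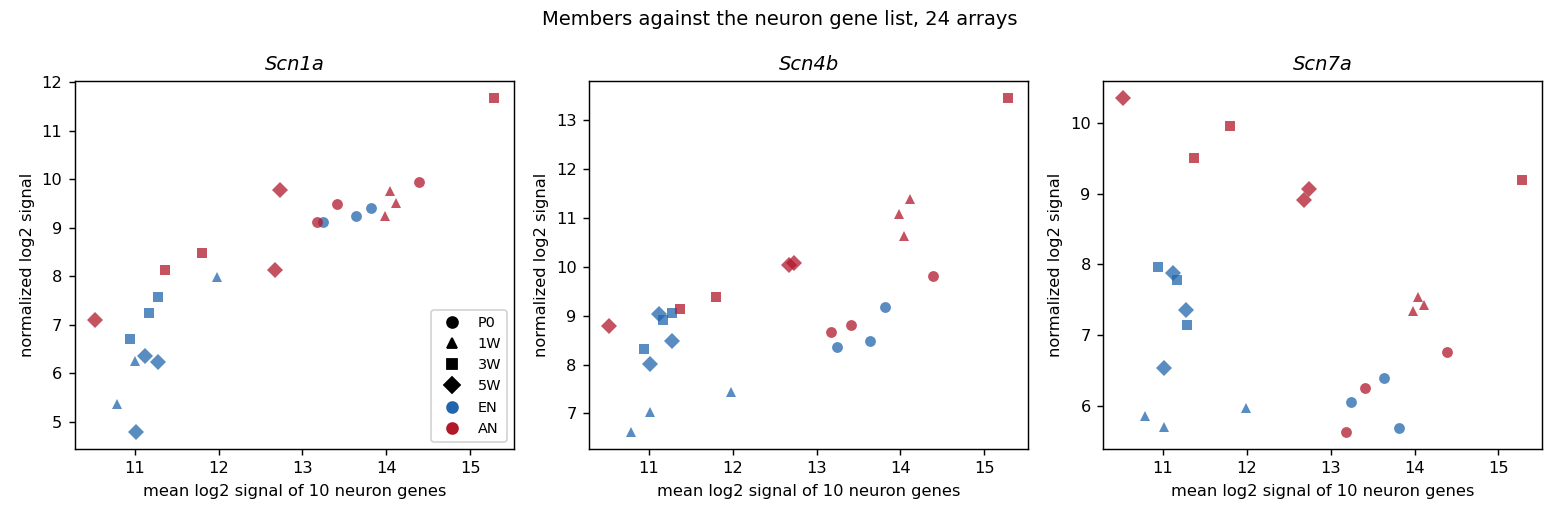
Log2 intensity of Scn1a, Scn4b and Scn7a (y axes) against the mean log2 intensity of 10 neuron genes (x axis) on the 24 arrays, shape by age, colour by root. Scn1a (r 0.901) and Scn4b (r 0.71) lie higher where the neuron list is higher, with AN 3 W replicate 3 at the far right, and Scn7a (r -0.139) does not.

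The neuron list had an r of -0.603 with the myelinating Schwann cell list over the 24 arrays and -0.612 after removal of group means. With the non-myelinating and immature list these were 0.785 and 0.439. The myelinating list (8 genes) differed between AN and EN by -0.57, -0.13, -0.10 and 0.10 at the 4 ages. Scn3b, which rose from P0 in both roots, had an r of 0.891 with this list over the 24 arrays and 0.525 after removal of group means. The list of non-myelinating and immature Schwann cells (Ngfr, L1cam, Ncam1, Gfap, Cdh2, Sox2) lay higher in AN without overlap at every age, by 0.54, 1.18, 1.46 and 1.48 (exact permutation p 0.1 each). Of its 6 genes 0, 2, 4 and 5 were called higher in AN, beside the Scn7a differences of 0.16, 1.59, 1.93 and 2.18. Over the 24 arrays Scn7a had an r of 0.041 with this list, and 0.274 after removal of group means. Over the 24 arrays it was 0.824 for Scn1a, 0.782 for Scn3a and 0.5 for Scn4b. For Scn2b, Scn8a and Scn3b it was 0.116, -0.099 and -0.692. From P0 the median of the genes of this list changed by -0.12, -0.47 and -1.11 in AN, where Scn7a rose. The part of this list in the Scn7a result and in those of the other genes was not tested.

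Macrophage genes also moved with age. Of 4 genes 3, 3 and 3 rose from P0 in EN and 2, 3 and 2 in AN at the 3 later ages, with medians of 1.74, 1.72 and 1.59 in EN and 1.13, 1.39 and 1.19 in AN, beside the Scn3b and Scn7a rises. Their part in these rises was not tested.

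Markers of the central side were also present. Of 6 oligodendrocyte genes Olig1 and Olig2 were higher in AN at 1 W and Opalin (not well above background on any EN 5 W array) and Olig1 at 5 W, and of 5 astrocyte genes Aqp4 and Slc1a2 were higher in AN at 1 W and 5 W and Gjb6 lower at 1 W. The oligodendrocyte list lay between 7.10 and 9.99 in AN and between 6.90 and 8.88 in EN. Of 17 fibroblast, endothelial, macrophage and muscle genes 0 were called between roots at any age by limma, with 2, 4, 8 and 8 at an unadjusted p below 0.05. Their part in the root differences was not tested.

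Among the other sodium channel genes 6 of 7 were tested, and 0, 2, 1 and 1 were called higher in AN at the 4 ages (by limma, with 0, 4, 4 and 2 at an unadjusted p below 0.05), with list medians of 0.09, 1.97, 1.97 and 0.94. Without AN 3 W replicate 3 the 3 W median was 0.95, and without AN 5 W replicate 3 the 5 W median was 1.69. Scn10a and Scn11a, the tetrodotoxin-resistant channels of nociceptors, exceeded EN at 1 W by 4.94 (SE 1.12, adjusted p 0.0148) and 4.57 (SE 1.05, adjusted p 0.0159). Scn9a, the Nav1.7 channel of sensory neurons, was well above background on 4 of 24 arrays and was not tested.

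Scn10a had mean log2 intensities of 12.33, 8.05, 7.19 and 7.06 in EN and 12.74, 12.99, 10.72 and 8.54 in AN at the 4 ages. It fell in EN by 4.28, 5.13 and 5.27 (adjusted p 0.00818, 0.000831 and 0.000614) and in AN by 4.19 at 5 W (adjusted p 0.00421). The AN arrays were spread widely, with an SD of 2.866 at 3 W and 2.515 at 5 W. Without AN 3 W replicate 3 the 3 W root difference of Scn10a was 1.87 in place of 3.53. Without AN 5 W replicate 3 that at 5 W was 2.86 in place of 1.48. Against P0 3, 4 and 3 of these 6 genes fell in EN at 1 W, 3 W and 5 W and none rose. In AN Scn2a fell at 1 W, and Scn10a and Scn11a fell at 5 W. These AN falls at 5 W were not tested without AN 5 W replicate 3.

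Of 16 binding partners and node of Ranvier genes 15 were tested. Between roots 2 were called lower in AN at P0 and 3, 3 and 2 higher at 1 W, 3 W and 5 W, with list medians of 0.08, 0.26, 0.31 and 0.46. Among those higher in AN were Cntn1, a contactin of the axon surface (2.35, 2.60 and 2.65), and at 1 W and 3 W Fgf12, an intracellular partner of the α subunits (3.12 and 2.72, adjusted p 0.0252 and 0.0430). Without AN 3 W replicate 3 the 3 W differences of Cntn1 and Fgf12 were 1.86 and 1.38, and the list median was 0.12. Fgf13 fell in EN by 2.97 at 1 W (adjusted p 0.0333, 2 of 3 arrays well above background) and by 3.37 at 5 W (adjusted p 0.00808, 1 of 3 arrays). No EN 3 W array of Fgf13 was well above background, so EN at P0 was at least 12.1-fold higher than at 3 W (adjusted p 0.00366). Fgf14 differed by at most 0.68 between roots or from P0.

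Nfasc (neurofascin) and Gldn (gliomedin), the pair that gathers channels at the forming node, were lower in AN at P0, by 1.18 (adjusted p 0.0331) and 1.51 (adjusted p 0.00298) on the log2 scale. They rose at every later age, Nfasc by 2.21, 2.74 and 2.63 in EN and by 3.04, 3.58 and 3.97 in AN, and Gldn by 1.60, 1.72 and 1.63 in EN, and by 2.80, 2.79 and 2.91 in AN. The anchor genes moved little: Ank3 (ankyrin-G) differed between roots by 0.46 at 5 W (adjusted p 0.0176) and from P0 by up to 0.74, both under the fold of 2, and Sptbn4 (βIV spectrin) by at most 0.39 in either comparison. Nrcam differed by up to 0.98 (AN 1 W against P0, adjusted p 0.000477), under the fold of 2.

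The genes whose patterns were most like those of the 7 were found by Pearson r over the 24 arrays among 17603 genes with 1 probe each. For Scn1a these were Atp2b2 (0.982), Pcnx2 (0.978) and Srrm3 (0.976), and for Scn4b Nrn1l (0.971), Wipf3 (0.950) and Fbxo2 (0.938). For Scn3a they were Snhg11 (0.966), Ipw (0.964) and Tspoap1 (0.962), and for Scn3b Mocs2 (0.973), Gm5086 (0.970) and Myrfl (0.967). For Scn7a they were Eva1c (0.941), Rarres2 (0.933) and Hivep2 (0.930), and for Scn2b Mctp1 (0.881), Smarcal1 (0.877) and Ap1s2 (0.869). Those of the brightest Scn8a probe were the 3 printed above, at 0.990, 0.989 and 0.984. The lowest of the 7 best values was that of Scn2b.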

How the data were processed

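Per the labels, Cy3-labelled RNA of the 24 samples was scanned and read with Agilent Feature Extraction 10.7.1.1, and the authors deposited background-subtracted intensity values per spot and a table of log2 values of all arrays. Here outlier spots were dropped, the intensity of the spots of a probe was averaged as log2 and quantile normalized over the 24 arrays (R 4.3.3, limma 3.58.1). For the 13 tested probes the result differed from the deposited log2 table by at most 0.0117. Each array held 59305 gene spots with 0 saturated, and the number of arrays limits the precision.

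All 8 groups were fitted in 1 limma model (lmFit, eBayes, 16 residual degrees of freedom), with Benjamini-Hochberg adjustment over 36409 probes. The files named the genes. Symbols of 32994 gene probes were updated through RefSeq accessions, 10224 were kept from the files, 520 came through older names and 12867 had none. The 7 genes, the gene lists and the rule for alike genes (3 of highest r each) were chosen with earlier results of these data known.

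AN and EN arrays of equal number deviated together from their group means (r 0.106 to 0.665 in 12 pairs). The numbers were therefore taken as pairs for the pair values and an alternative fit, while the main fit did not pair them. Arrays of unlike number had an r of -0.483 to 0.118. At 3 W the link was weak: AN 1 with EN 2 had 0.118, above AN 2 with EN 2 at 0.106. The methods state p below 0.05 and fold above 2, with no word on adjustment. Python 3.11.15 and matplotlib 3.10.9 made tables and figures. Some genes of the lists and some probe sequences are not reported here.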

Additional observations from a re-analysis of the deposited data

How the results depend on the processing

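The authors' log2 table and scaling to the 75th percentile changed no call of the 7 genes, and scaling moved the median of all probes by at most 0.042. Numbers of genes called (of 7) moved by over 1.5 times as follows, in the order of AN minus EN at 1 W (4), 3 W (1) and 5 W (1), EN against P0 at 3 W (4) and 5 W (4), AN against P0 at 1 W (2), 3 W (4) and 5 W (3), 3 W against 1 W in EN (2) and AN (1), and the change of the root difference from P0 at 1 W, 3 W and 5 W (0 each). With an unadjusted p they were 4 (AN minus EN 3 W), 2 (5 W), 4 (AN 1 W), 4 (EN 3 W against 1 W), and 4, 1 and 1 for the change from P0. With no fold limit 4 and 2 passed for 3 W against 1 W in EN and AN. Normexp left 2 at 1 W and gave 1 for the change from P0 at 5 W, and other probes gave 2 at 5 W. Where probes had to be above background on all 24 arrays, Scn3a and Scn7a were not tested and the counts were 0 and 0 (AN minus EN 3 W and 5 W), 2 and 2 (EN), 1, 2 and 1 (AN), and 1 and 0 (3 W against 1 W).

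With slide or with scan batch as a block the counts were the same for both: 2 and 2 (AN minus EN 3 W and 5 W), 2 (EN 3 W), 1 and 2 (AN 1 W and 3 W), 0 and 0 (3 W against 1 W), and 1 and 1 for the change from P0 at 3 W and 5 W. Array weights gave 3 and 2 (AN minus EN 3 W and 5 W), 4 (AN 1 W), 4 and 2 (3 W against 1 W), and 2 and 1 for the change from P0 at 1 W and 3 W. With the compared groups alone the counts were 0 (5 W), 4 (AN 1 W) and 1 (change from P0 at 1 W). A replicate block over all numbers gave 2 at 5 W (Scn1a, adjusted p 0.0460) and moved no other count by over 1.5 times. The pairing of AN and EN within an age, a replicate block chosen after seeing the data, gave 3 and 2 at 3 W and 5 W and 1, 1 and 1 for the change from P0. The cause was not tested.

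Signs turned in 6 cases, all on the other probe: for Scn8a AN minus EN at 1 W (2.40), EN 1 W against P0 (-1.58), AN 3 W against P0 (0.54) and EN 3 W against 1 W (1.91), and for Scn7a EN 5 W (-0.0711) and AN 1 W (-0.0247) against P0. Of the remaining single values 2416 kept sign and call, 103 lost and 88 gained a call, and 112 changed sign with no call. With 1 array left out the counts for AN minus EN ranged over 0 to 0, 1 to 3, 1 to 2 and 1 to 3 at the 4 ages, for EN against P0 2 to 3, 3 to 4 and 3 to 5, for AN 0 to 3, 4 to 5 and 3 to 4, for 3 W against 1 W 1 to 2 in either root, and for the change from P0 0 to 1. With 1 replicate number left out in all groups they were 0 to 0, 0 to 3, 0 to 2 and 0 to 4, then 1 to 4, 3 to 4 and 3 to 4, then 1 to 2, 3 to 4 and 2 to 4, then 0 to 3 in EN and 1 to 2 in AN, and 0 to 1 for the change. Over all probes normexp called 79, 579 and 584 at P0, 3 W and 5 W, against 119, 1140 and 1217.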
